A study of Homo sapiens with 6 samples.

Results

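The I304N form of FMR1 isoform 7 was compared with wild-type isoform 7 through the RNA binding sites listed for each. The I304N list held 88644 sites and the wild-type list 78495, and all sites of both lists were used, 167139 of the 464799 sites in the 6 libraries of the series. The assay was PAR-CLIP: cells take up 4-thiouridine, ultraviolet light links that nucleoside in RNA to bound protein, the protein is pulled down, and the attached RNA fragments are sequenced. Both proteins carried FLAG and HA tags and were expressed from doxycycline-inducible transgenes in FlpIn T-Rex HEK293 cells, a human embryonic kidney line that also has its own FMR1 gene. Both lines had the same treatment, 1 µg/ml doxycycline with 100 µM 4-thiouridine for 16 h and light of 365 nm at 0.15 J per square cm, and RNase T1 for 15 min at 22 °C. The other libraries, used below only as further readouts, were I304N isoform 1, wild-type isoform 1, FXR2 and FXR1. Each form was 1 library, and which of the 2 sequencing machines named in the labels read it is not stated. No difference below has a replicate error or a test, and the intervals given are 95% intervals for counting error only. They treat sites as independent, although sites often lie close together, and so can be too narrow.

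FMR1, the protein missing in fragile X syndrome, binds mRNA and is found on polyribosomes, where it is known for holding back translation. It contacts RNA through KH domains and an RGG box. I304N, a rare patient mutation, replaces an isoleucine in the second KH domain and is known for weakening RNA binding and taking the protein off polyribosomes. Isoform 7 is a splice form that leaves out an exon of the full-length isoform 1. FXR1 and FXR2 are its paralogs.

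The libraries differed in length and in the shape of their sites before any position was compared. Lists ran from 9017 sites in FXR1 to 132219 in I304N isoform 1, and the number of reads behind a site was not given. I304N isoform 7 had wider sites than wild-type isoform 7, with a mean of 28.2 nt (SD 18.5 across sites, median 24) against 23.2 nt (SD 11.2, median 21). Sites of at least 60 nt made up 4.90% of the I304N list and 1.51% of the wild-type list. Together the sites covered 2499874 nt in I304N and 1822860 nt in wild type, 1.37 times as much for 1.13 times as many sites. No 2 sites of a list overlapped each other on a strand.

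Each site name holds a number that neighbouring sites can share, always on 1 strand, and whose meaning is not given in the sources used here. I304N isoform 7 used 75243 such numbers and wild-type isoform 7 used 73729, close to each other although the I304N list was longer by 10149 sites. The surplus sat within numbers: 13.6% of I304N numbers (13.4 to 13.9) held several sites, against 5.54% of wild-type numbers (5.38 to 5.71). An I304N number held up to 12 sites and a wild-type number up to 9.

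About as many wild-type sites had an I304N partner as had none. Sites were paired where they shared 1 nt or more of a strand. Of the I304N sites, 41.9% (41.6 to 42.2) lay on a wild-type site, and 51505 sites, 58.1%, did not. Of the wild-type sites, 49.8% (49.4 to 50.1) lay under an I304N site, and 39424, 50.2%, did not. The 4 classes are called shared and gained for I304N sites and kept and lost for wild-type sites, as names for what the lists hold and not for binding as such. Only 0.132% of I304N sites lay over a wild-type site of the opposite strand.

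Gained sites lay closer to wild-type sites than lost sites lay to I304N sites. The median gap to the nearest site of the other form was 277 nt for gained I304N sites and 1120 nt for lost wild-type sites. Within 100 nt, 34.1% of gained sites (33.7 to 34.5) had a wild-type site, while 26.3% of lost sites (25.8 to 26.7) had an I304N site. Within 1000 nt the shares were 67.0% of gained and 49.0% of lost sites. Beyond 50000 nt lay 5.17% of gained and 19.2% of lost sites.

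Where sites of both forms met, the I304N site was usually the longer. There were 39761 overlapping pairs, of which 33779 joined 1 site with 1 site. In these the I304N site was wider in 63.1% (62.6 to 63.6), narrower in 29.8% and equal in 7.12%, with medians of 27 nt in I304N and 23 nt in wild type. Both ends could move: the I304N site began further upstream in 51.4% of all pairs and ended further downstream in 58.9%, and the wild-type site lay wholly inside the I304N site in 55.6%. The reverse nesting was seen in 22.4% of pairs, a figure that, like the last, includes the 4.19% with both ends identical. An I304N site spanned several wild-type sites in 5.99% of shared sites, with a maximum of 7, and a wild-type site lay under several I304N sites in 1.72% of kept sites.

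Lost wild-type sites were narrower than kept ones, and a larger share of them was isolated. They had a median width of 19 nt (quartiles 17 and 23), against 23 nt (19 and 29) for kept sites. In I304N, gained sites had a median of 22 nt (18 and 27) and shared sites 28 nt (22 and 38). No other site of the same list lay within 1000 nt of 41.6% of lost sites (41.1 to 42.1) and of 15.6% of kept sites (15.2 to 16.0). The same share was 17.9% among gained and 14.0% among shared I304N sites, with intervals of 17.6 to 18.2 and 13.7 to 14.4. A wider site meets another site more easily by geometry, so the overlap was also read within width classes.

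**Figure D1:**
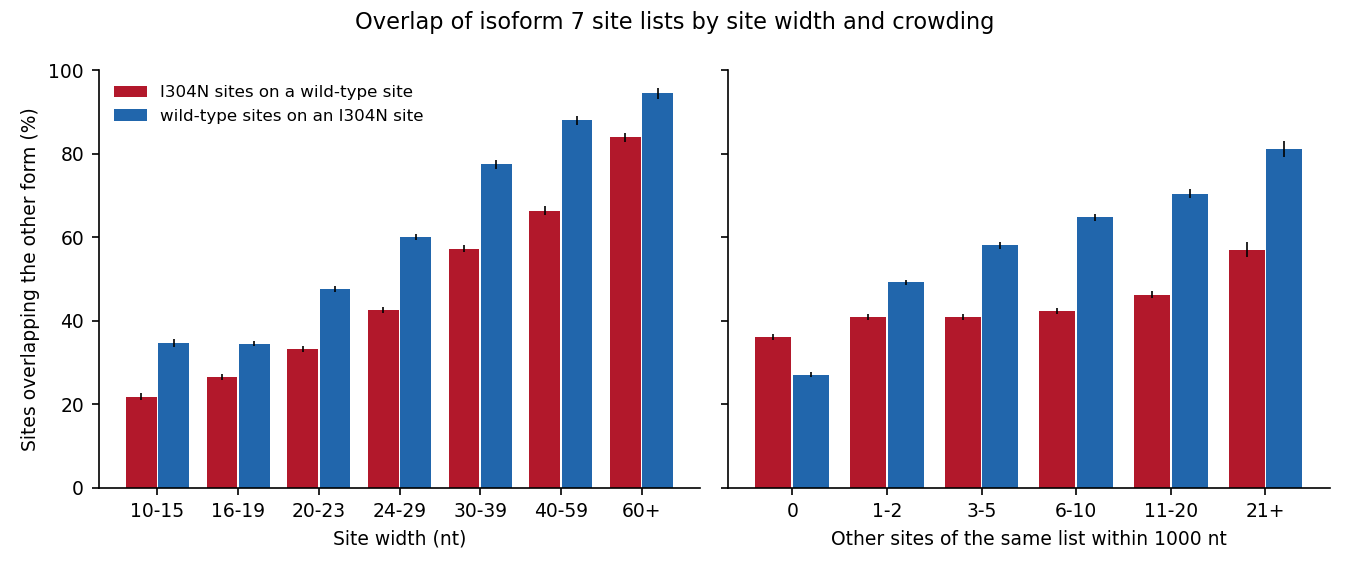
Percent of isoform 7 sites that overlap a site of the other form (y axis), by site width in nt (left) and by number of other sites of the same list within 1000 nt (right); red bars are I304N sites, blue bars wild-type sites, and error bars are exact 95% counting intervals. Overlap is higher in wider sites of both lists, and in wild-type sites it is 27.1% with no neighbour and 81.2% with 21 or more.

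Overlap was higher in wide sites of both lists. Among sites of 60 nt or more, 84.1% of I304N sites and 94.7% of wild-type sites met the other form, while among sites of 16 to 19 nt these shares were 26.6% and 34.5%. With crowding, overlap varied more in the wild-type list. I304N sites with no neighbour within 1000 nt were shared in 36.1% of cases and those with 21 or more in 57.1%, whereas wild-type sites were kept in 27.1% (26.5 to 27.7) and 81.2% (79.3 to 83.0). Among sites of 20 to 23 nt alone, I304N sites were shared in 34.1% with no neighbour, 34.4% with 1 to 5 and 31.2% with 6 or more. For wild-type sites of this width the kept share was 28.8% (27.6 to 29.9), 51.1% (50.1 to 52.1) and 63.8% (62.5 to 65.2) in the same classes.

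I304N sites lay closer together than wild-type sites. The median gap to the nearest other site of the same list was 54 nt in I304N and 131 nt in wild type, and 48.5% of I304N sites and 34.8% of wild-type sites had another within 50 nt. Isolated sites, with none within 1000 nt, made up 16.3% of the I304N list (16.0 to 16.5) and 28.7% of the wild-type list (28.4 to 29.0). Wild-type sites that were both isolated and lost numbered 16413, 20.9% of their list, and 65.6% of them overlapped no site of any other library. The corresponding isolated and gained I304N sites numbered 9216, 10.4%, of which 38.8% were in no other library. Among all lost sites, isolated or not, 46.4% were in no other library, and among all gained sites 31.5%. Apart from the overlap that defines them, 4.33% of kept and 4.33% of shared sites were in no other library.

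**Figure D2:**
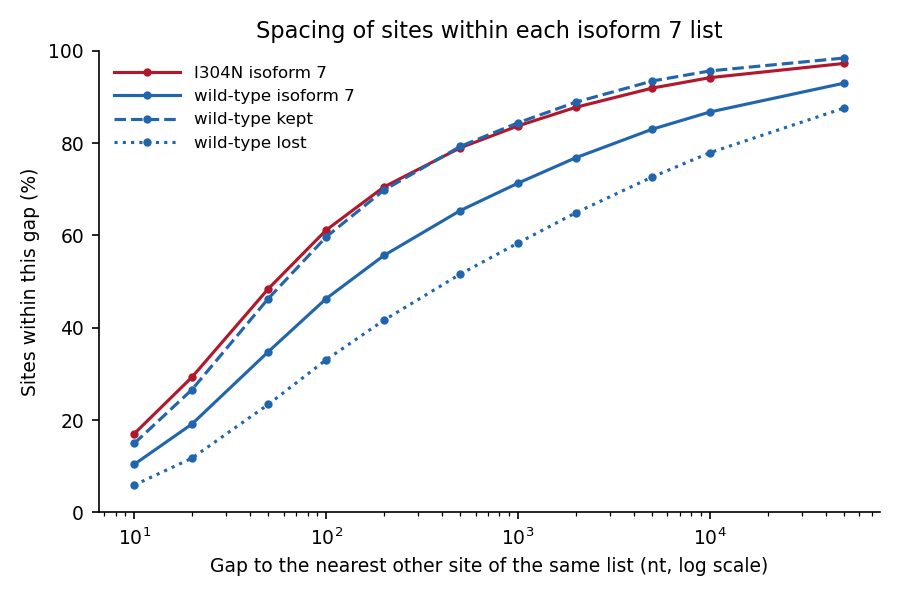
Cumulative percent of sites (y axis) whose nearest other site in the same list lies within a given gap in nt (x axis, log scale), for I304N isoform 7 (red) and wild-type isoform 7 (solid blue), and for the kept (dashed) and lost (dotted) wild-type sites measured within the whole wild-type list. The curve of kept wild-type sites runs near that of the I304N list, and lost sites are the most widely spaced, 41.6% of them having no other site within 1000 nt.

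Joining sites across gaps of up to 100 nt gave 51929 clusters in I304N and 54959 in wild type. Clusters of at least 5 sites numbered 2169 in I304N, holding 19.2% of its sites, and 1129 in wild type, holding 10.8%. Of these, 188 I304N clusters (8.67%, 7.52 to 9.93) contained no wild-type site, and 30 wild-type clusters (2.66%, 1.80 to 3.77) contained no I304N site. Among clusters of at least 10 sites, 8 of 429 in I304N and 0 of 172 in wild type lacked a site of the other form. With 0 observed, the exact upper limit for wild type was 2.12%.

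The largest cluster was the same stretch in both lists, and 3 of the 5 largest were. On chr16:2811479-2818242 (hg19, plus strand) I304N had 93 sites, and the wild-type cluster there, chr16:2811570-2818246, had 91. FXR2 had 92 sites in the first of these spans. The next in both lists lay on chr1, at chr1:16257383-16262749 (plus strand) in I304N, where it had 72 sites and wild type had 80. Both lists had 41 sites in a cluster near chr5:176720838-176723297 (plus strand). The other largest I304N clusters were chr8:141535007-141538234 (minus strand), with 42 sites in I304N and 36 in wild type, and chr3:49049092-49051523 (plus strand), with 37 and 29. The other largest wild-type clusters were a mitochondrial stretch from 10066 to 14957 (minus strand), with 34 sites in I304N and 44 in wild type, and chr5:71493639-71496179 (plus strand), with 33 and 42.

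The clusters gained and lost entire were much smaller. The largest gained, ranked by number of sites, was chr9:131851973-131852585 (plus strand), with 12 I304N sites and no wild-type site either inside it or within 5000 nt on each side. I304N isoform 1 had 5 sites there and wild-type isoform 1 none. A cluster of 12 I304N sites on chr1:28608087-28608924 (plus strand) likewise had no wild-type site within 5000 nt, and held 13 sites of I304N isoform 1 and 4 of wild-type isoform 1. On chr10:74034469-74035218 (plus strand), also with 12 I304N sites, 5 wild-type sites lay within 5000 nt, and the isoform 1 counts were 13 in I304N and 2 in wild type. The largest lost clusters had 7 wild-type sites each. A pair of them, chrX:112020337-112020677 and chrX:112022272-112022581 (minus strand), lay close together, and no I304N site fell within 5000 nt of either, although I304N isoform 1 had 3 and 6 sites in them and wild-type isoform 1 none. Around the lost cluster chr16:27476593-27476838 (minus strand), in contrast, 8 I304N sites lay within 5000 nt, against 30 wild-type sites.

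To compare stretches rather than positions, sites were counted in windows of 50 kb on each strand. At least 1 site was found in 11263 windows for I304N and in 15848 for wild type, so that the longer list occupied fewer windows, with a mean of 7.87 sites in I304N and 4.95 in wild type. Both forms had sites in 8836 windows. I304N alone had sites in 2427 windows, 1662 of them with a single site, and these held 5.09% of its list. Wild type alone had sites in 7012 windows, 5649 of them with a single site, and these held 12.6% of its list. Stretches with at least 5 sites of 1 form and none of the other were about as many on each side, 168 for I304N and 181 for wild type. A wild-type site alone in its window was kept in 14.2% of cases (13.4 to 15.0) and a wild-type site in a window of 50 or more in 71.2% (70.3 to 72.1). For I304N sites the corresponding shared percentages were 29.7% and 53.4%.

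Counts were then expressed per 100000 sites of each list with 1 added to every count, and the 7513 windows with a mean of at least 2 scaled sites were compared. I304N was at least 2-fold denser in 1609 windows, 21.4% of those compared, and at least 2-fold sparser in 1509, 20.1%. Some of these windows held very few sites, and the cut was uneven at such counts. A window with 1 I304N and 3 wild-type sites counted as sparser, while 3 and 1 did not count as denser. A window with 4 I304N sites and 0 wild-type sites counted as denser, passing the filter on sites of a single form. The median log2 ratio of I304N over wild type was 0.04, with quartiles of -0.75 and 0.94. Among the 2640 windows with a mean of at least 10 scaled sites, 551 (20.9%) were at least 2-fold denser in I304N and 322 (12.2%) at least 2-fold sparser.

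**Figure D3:**
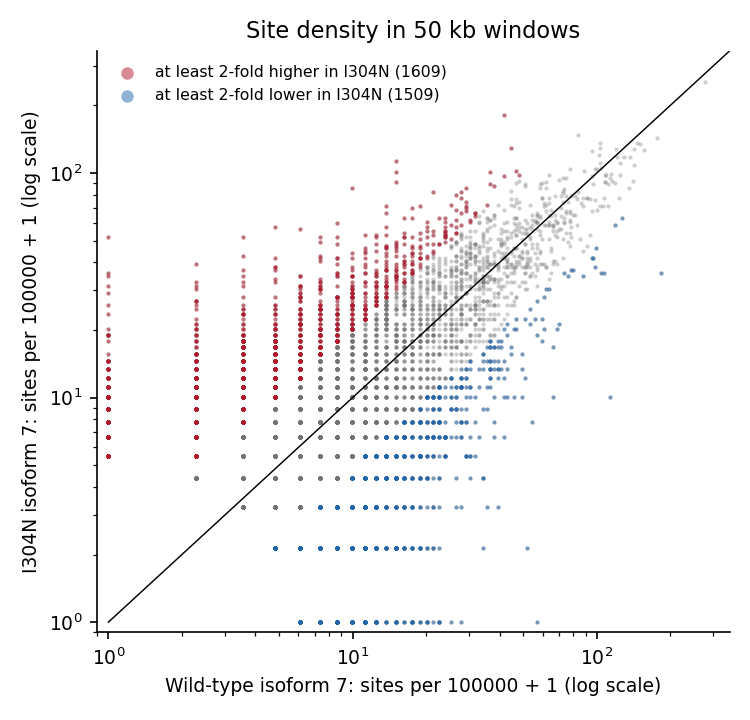
Scaled site density in the 7513 windows of 50 kb, wild-type isoform 7 on the x axis and I304N isoform 7 on the y axis, both as sites per 100000 plus 1 on log scales; red points are at least 2-fold denser in I304N (1609), blue points at least 2-fold sparser (1509), and the line marks equal density. Most of the densest windows lie near the line; the blue point farthest right is the plus strand of the mitochondrial genome, with 31 sites in I304N and 143 in wild type, and windows at 1 on an axis had no site of that form.

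Outside the mitochondrial genome, the densest wild-type windows had similar densities in I304N. The densest of both lists was chr12:49400001-49450000 (minus strand), with 224 sites in I304N and 216 in wild type (scaled ratio 0.918, 0.758 to 1.11), and 195 of the 216 wild-type sites were kept. On chr1:16250001-16300000 (plus strand) I304N had 126 sites and wild type 138, with 125 of these kept, and on chr16:2800001-2850000 (plus strand) the counts were 118 and 117, with 110 kept. The 5 densest wild-type windows outside the mitochondrial genome kept between 86.8% and 94.0% of their sites, and their ratios ran from 0.806 to 0.932. Of the 5 densest I304N windows, 2 had ratios with intervals above 1. On chr10:62550001-62600000 (plus strand) 159 sites were counted in I304N and 32 in wild type, and on chr17:79800001-79850000 (minus strand) 130 and 65, a ratio of 1.77 (1.31 to 2.42). The window chr19:57800001-57850000 (plus strand) had 120 and 80 sites, a ratio of 1.33 (0.993 to 1.79), and 70 of the 120 were gained. In isoform 1 the order there was the opposite, 138 sites in I304N and 230 in wild type (ratio 0.553, 0.445 to 0.686).

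The window on chromosome 10 also had the largest gain in scaled sites, a ratio of 4.40 (2.99 to 6.65). Of its 32 wild-type sites 31 were kept, and 131 I304N sites were gained among them. The isoform 1 libraries gave the opposite order there, 129 sites in I304N and 208 in wild type (ratio 0.572, 0.455 to 0.716). FXR1 and FXR2, both shorter lists, had 49 and 84 sites there, so wild-type isoform 7 had the fewest of the 6 libraries. The next 2 gains were on chr16:88800001-88850000 (minus strand), with 99 I304N sites against 11 in wild type, and chr21:45200001-45250000 (plus strand), with 89 against 11. I304N isoform 1, the longer list, had only 11 and 23 sites in them. Wild-type isoform 1 had 1 and 0, and FXR1 and FXR2 had none. The fourth gain, on chr16:69350001-69400000 (minus strand), had 114 sites in I304N and 34 in wild type, a smaller ratio of 2.97 (2.01 to 4.49). The next was chr1:228350001-228400000 (plus strand), with 80 and 11 sites and a ratio of 6.44 (3.41 to 13.4), followed by chr9:131350001-131400000 (minus strand), with 75 and 7 and a ratio of 9.49 (4.39 to 24.4).

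Most wild-type sites in the windows of largest gain were kept. These windows were ranked by their surplus of I304N sites, which itself favours overlap, so the kept shares are a description only. In 7 of the 10 at least 85.7% of wild-type sites were kept, and on chr9:131350001-131400000 all 7 were. The exceptions were the windows on chr16 from 88800001, with 63.6% kept, on chr1 from 228350001, with 54.5%, and on chr21, with 45.5%. Over all 7513 windows compared, the median log2 ratio of I304N over wild type in isoform 1 was 0.41, so ratios above 1 were common. The share of all windows with such a ratio was not counted, so the counts that follow are a description only. In the 10 windows of largest gain the isoform 1 ratio was above 1 in 8, with the interval above 1 in 7. Besides the window on chromosome 10, the exception was chr19:28200001-28250000 (minus strand), with 62 sites in I304N isoform 7 and 10 in wild-type isoform 7, but 20 in I304N isoform 1 and 80 in wild-type isoform 1.

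The largest losses outside the mitochondrial genome were found in windows that stayed populated in I304N isoform 1. The first was chrX:73050001-73100000 (minus strand), with 8 sites in I304N and 88 in wild type (ratio 0.0805, 0.0337 to 0.166). All 8 lay on wild-type sites, and 80 wild-type sites were lost. In isoform 1 this window had 56 sites in I304N and 126 in wild type (ratio 0.410, 0.294 to 0.566). The next loss, on chr16:58550001-58600000 (minus strand), had 31 sites in I304N and 83 in wild type (ratio 0.331, 0.212 to 0.505), and 30 of the 31 lay on wild-type sites. On chr11:118350001-118400000 (plus strand) 31 sites in I304N stood against 81 in wild type (ratio 0.339, 0.216 to 0.519), with 22 wild-type sites kept. On chr12:950001-1000000 (plus strand) I304N had 8 sites and wild type 51 (ratio 0.139, 0.0569 to 0.295), while isoform 1 had 48 in I304N and 42 in wild type. Gained I304N sites numbered between 0 and 16 in each of the 10 windows. The windows were ranked by their shortage of I304N sites relative to wild type, which itself favours low counts. The share of all windows with an isoform 1 ratio below 1 was not counted, so the counts that follow are a description only. In isoform 1 the ratio was below 1 in 7 of the 10. Its interval, however, lay below 1 only in the first window of chromosome X and above 1 in 1 window, the next to be described.

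In several windows 1 form had no site at all. On chrX:112000001-112050000 (minus strand) I304N had none and wild type had 44, so that I304N was at least 16.6-fold sparser. This and the other such bounds take 3 sites over the window in place of 0 and leave out the counting error of the other form. In isoform 1 the order was the reverse, 34 sites in I304N and 1 in wild type. On chr5:16650001-16700000 (minus strand) I304N had a single site and wild type 40 (ratio 0.0221, 0.000547 to 0.131), and 45 and 25 sites were found in I304N and wild-type isoform 1. On chr17:15950001-16000000 (minus strand) I304N had none and wild type 21, at least 7.91-fold sparser, against 22 in I304N isoform 1 and 25 in wild-type isoform 1. On chr16:12250001-12300000 (plus strand) the 17 sites of wild-type isoform 7 were the only ones in any of the 6 libraries. In the opposite direction, chr19:40400001-40450000 (minus strand) had 45 sites in I304N and none in wild type, at least 13.3-fold denser, with 2 sites in I304N isoform 1 and 1 in wild-type isoform 1. On chr17:8250001-8300000 (minus strand) I304N had 31 sites and wild type none, at least 9.15-fold denser, while both isoform 1 libraries had 21. The windows named here were ranked by the same counts that give their ratios, so these ratios are a description of extremes.

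The windows that differed in isoform 7 were also read in the isoform 1 libraries. Of the 1609 windows at least 2-fold denser, 67.3% were at least 2-fold denser and 3.85% at least 2-fold sparser in I304N isoform 1 relative to its wild type, against 35.2% and 14.2% of all 7513 windows. Of the 1509 windows at least 2-fold sparser, 28.1% were at least 2-fold sparser and 18.8% at least 2-fold denser in isoform 1. Both denser and sparser windows thus had the same direction in isoform 1 in a larger share than all windows. The median log2 ratio of isoform 1 was 1.61 over the denser windows, -0.29 over the sparser ones and 0.41 over all. No test of these differences was possible with 1 library per form.

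**Figure D4:**
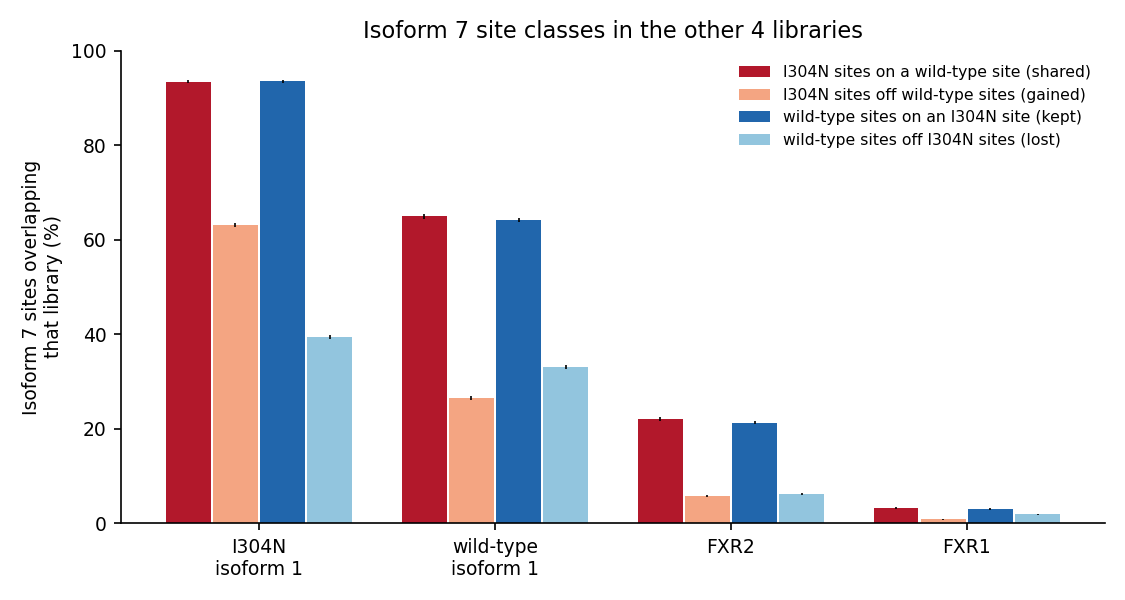
Percent of isoform 7 sites of 4 classes (y axis) that overlap a site of I304N isoform 1, wild-type isoform 1, FXR2 or FXR1 on the same strand; error bars are exact 95% counting intervals. Shared and kept sites reach 93.5% in I304N isoform 1, and gained sites (orange) stand above lost sites (light blue) there and below them in wild-type isoform 1. The classes also differ in site width and crowding, by which the bars are not split.

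The libraries not used to form the classes gave a further reading of each. Shared I304N sites and kept wild-type sites were found in I304N isoform 1 in 93.5% of cases each, and in wild-type isoform 1 in 64.9% and 64.2%. Gained I304N sites were found in I304N isoform 1 in 63.2% (62.8 to 63.6) and in wild-type isoform 1 in 26.5% (26.1 to 26.9). Lost wild-type sites were found in I304N isoform 1 in 39.4% (39.0 to 39.9) and in wild-type isoform 1 in 33.0% (32.5 to 33.5), so more of them had a partner in the mutant than in the wild-type isoform 1 list, which were 132219 and 121903 sites long. Sites with a partner in I304N isoform 1 alone made up 41.6% of gained and 19.6% of lost sites, and sites with a partner in wild-type isoform 1 alone 4.90% and 13.2%. In neither isoform 1 library were 31.9% of gained sites and 47.4% of lost sites. FXR2 sites, from a shorter list, lay on 22.1% of shared, 5.82% of gained, 21.3% of kept and 6.16% of lost sites. For FXR1 these shares were 3.21%, 0.839%, 3.03% and 1.84%. None of the shares in other libraries was split by site width or crowding, in which the classes differed.

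Sites carrying the authors' repeat mark were more common among lost sites. They made up 6.02% of lost wild-type sites (5.79 to 6.26) and 2.98% of kept ones, against 3.51% of gained and 3.44% of shared I304N sites. A wild-type site in a repeat was kept in 32.9% of cases (31.4 to 34.5) and one outside repeats in 50.6%. For I304N sites the shared percentages were 41.5% in repeats and 41.9% outside.

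The forms also spread differently over chromosomes. The share of I304N sites was above that of wild-type sites beyond the counting interval on 8 of 23 chromosomes (the autosomes and X), below it on 12, and within it on 3. Sites often lay close together and each form was 1 library, so these counts are a description and not a test. Chromosome 19 stood highest, with 8976 sites in I304N and 4997 in wild type (ratio of shares 1.59, 1.54 to 1.65), followed by chromosome 14 with 1.33 (1.26 to 1.40), chromosome 7 with 1.21 (1.16 to 1.27) and chromosome 20 with 1.20 (1.13 to 1.27). The lowest of the 23 were chromosome 4, at 0.663 (0.623 to 0.706), chromosome 18, at 0.678 (0.616 to 0.746), and chromosome 2, at 0.771 (0.738 to 0.805). Chromosome 19 had both the largest share of wild-type sites kept, 68.0% (66.7 to 69.3), and the largest share of I304N sites gained, 65.6% (64.6 to 66.6). On chromosome 4, which had the smallest kept share, 32.9% (31.0 to 34.8) of wild-type sites were kept and 57.6% of I304N sites were gained. In windows, 38.7% of the 525 on chromosome 19 were at least 2-fold denser in I304N and 4.00% at least 2-fold sparser, while on chromosome 4 these shares were 12.9% and 32.6% of 233 windows.

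**Figure D5:**
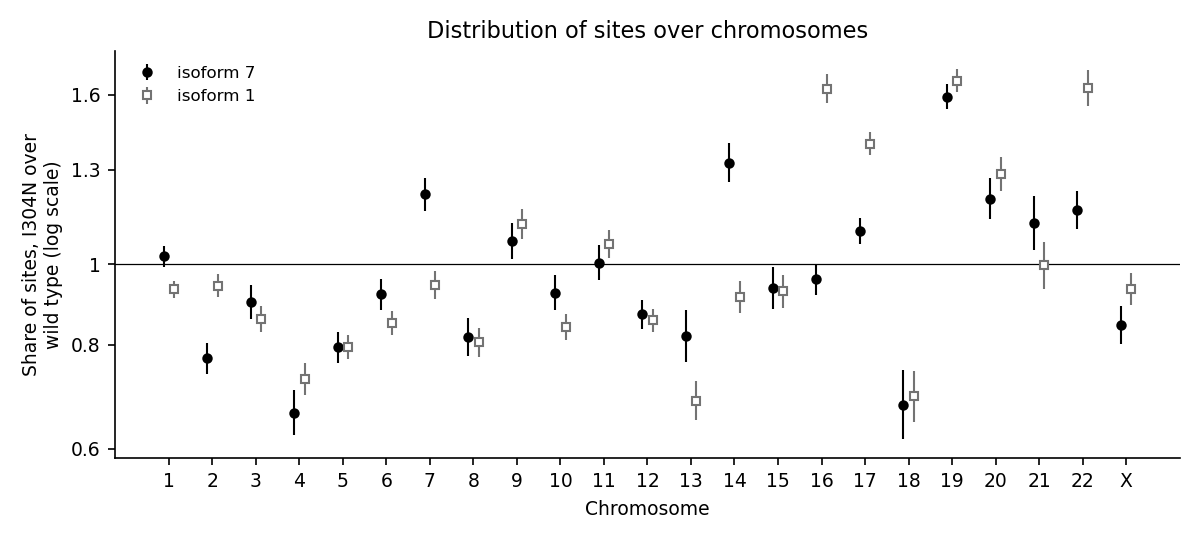
Share of a library's sites on each chromosome, I304N divided by wild type (y axis, log scale), for isoform 7 (filled circles) and isoform 1 (open squares), with exact conditional 95% counting intervals as bars and a line at 1. Chromosome 19 stands high in both isoforms, and in isoform 7 chromosomes 7 and 14 lie above 1 where isoform 1 lies below.

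The difference on chromosome 19 was not even along its length. In steps of 5 Mb the ratio was highest between 15 and 20 Mb, where I304N had 1108 sites and wild type 391 (ratio 2.51, 2.23 to 2.82), and next between 40 and 45 Mb, with 1319 and 594 sites (ratio 1.97, 1.78 to 2.17). It was lowest between 30 and 35 Mb, with 521 and 422 sites and a ratio of 1.09 (0.960 to 1.25). Between 20 and 25 Mb few sites were found, 70 in I304N and 53 in wild type, and 22.6% of the wild-type sites there were kept, against 76.5% between 10 and 15 Mb. Genes under these positions were not analysed here, since the annotation at hand is on another genome build.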

How the data were processed

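The data were lists of PAR-CLIP sites, 1 per protein form, grouped by the immunoprecipitated protein in the labels. The submitters' processing notes name Bowtie 0.12.7 and the build hg19. How sites were called, with which thresholds, and whether libraries were pooled is not given in the sources used here. The deposited score is a flag, 1000 outside repeats and 0 in a repeat, per the file headers, so every value counts sites and the depth in reads is unknown. Coordinates are printed 1-based.

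Overlaps, gaps, clusters and windows were computed in Python 3.11.15 with numpy 2.4.6, pandas 2.3.3 and scipy 1.17.1, and tested on simulated lists with planted answers. The planted windows held many more sites than the sparsest windows compared, so calls at small counts were not tested. A site belongs to the window of its midpoint. Shares carry exact Clopper-Pearson intervals and ratios exact conditional ones. Named windows are the 5 densest per list, the 10 largest gains and losses in scaled sites, and the 5 highest and lowest log2 ratios at a mean of at least 10 scaled sites. Named clusters are the 5 largest gained and lost, and the largest of each list. The text gives a selection, without mitochondrial windows. Members and lists were chosen with earlier results of these data known.

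The annotation at hand is on GRCh38 and holds no genome sequence of hg19. The planned gene names, gene lists and sequence motifs were therefore not analysed here.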

Additional observations from a re-analysis of the deposited data

Results flagged for a closer look

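Several features of the site lists differed between I304N and wild type in opposite directions in the 2 isoforms, each with 1 library per form. The difference between isoforms was not tested, and its cause was not tested either. In all values that follow, the difference is I304N minus wild type. The share of isolated sites differed by -12.4 percentage points in isoform 7 and by 2.63 in isoform 1. Mean site width differed by 4.98 nt in isoform 7 and by -1.48 nt in isoform 1, and median width by 3 nt and -1 nt. The median gap to the nearest site differed by -77 nt and 10 nt. Sites of 60 nt or wider differed by 3.39 and -1.50 percentage points. Sites per name number differed by 0.113 and -0.138, and the share of name numbers with several sites by 8.10 and -6.09 percentage points. The 2 wild-type lists differed from each other more than the 2 I304N lists did. Isolated sites made up 16.3% and 15.4% of I304N isoforms 7 and 1, against 28.7% and 12.8% of wild-type isoforms 7 and 1. Mean widths were 28.2 and 28.0 nt in I304N, against 23.2 and 29.5 nt in wild type. Among these lists, wild-type isoform 7 had the largest isolated share and the smallest mean width.

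Among the autosomes and X, 2 chromosomes had ratios on opposite sides of 1 with both intervals clear of 1. The share of sites on chromosome 7, as a ratio of I304N over wild type, was 1.21 in isoform 7 and 0.944 in isoform 1. For chromosome 14 the ratios were 1.33 and 0.913. Chromosome 16 differed more between isoforms, with 0.959 (0.919 to 1.001) in isoform 7 and 1.63 (1.56 to 1.69) in isoform 1, but its isoform 7 interval reached 1.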

How the results depend on the processing

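Of 48 values recomputed for 12 results, 18 moved by less than their counting interval or, for counts, by less than 1.5 times, and 30 moved by more. The difference in isolated sites kept its sign under all 4 of its alternatives, while the order of denser and sparser windows turned round under 3. With an overlap of at least 50% of both sites, the share of wild-type sites kept was 36.5% and that of I304N sites shared 32.3%. Gained sites then overlapped I304N isoform 1 in 52.9% and wild-type isoform 1 in 17.1%, and lost sites in 30.3% and 21.3%. With the I304N list thinned by position to the 78495 sites of the wild-type list, 44.3% of wild-type sites were kept, 51.2% of lost sites had an I304N site within 1000 nt, and isolated sites differed by -10.7 percentage points, I304N minus wild type. Outside repeats these values were 50.3%, 50.1% and -11.7, and lost sites overlapped I304N isoform 1 in 40.6%. Isolated sites differed by -14.8 points at 200 nt and -8.90 at 5000 nt, and lost sites had an I304N site within 100 nt in 26.3% and within 5000 nt in 63.5%. Windows at least 2-fold denser in I304N numbered 1023 at 200 kb, where 1224 were sparser, so that the order turned round. They numbered 851 with a pseudocount of 5, against 778 sparser, 551 with a mean of at least 10 scaled sites, against 322, and 3785 without a filter, against 8215, again with the order turned round. Outside repeats the order also turned, with 1572 denser and 1712 sparser. Median-of-ratios scaling gave 2140 and 1419 and moved the median log2 ratio from 0.04 to 0.21. Gained and lost clusters numbered 84 and 15 with gaps of up to 50 nt, 351 and 97 with gaps of up to 500 nt, and 1471 and 401 with 3 or more sites. Depth in reads is unknown, and 1 library per form limits every comparison. No paired analysis was possible because each form has 1 library and no test was made.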

Other observations

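Sites on the mitochondrial genome were fewer in I304N, 86 against 242 in wild type, a ratio of shares of 0.315 (0.243 to 0.404), and their strands differed too. I304N had 31 on the plus and 55 on the minus strand, and wild type had 143 and 99. In isoform 1, I304N had 31 and 41 and wild type 125 and 21. Of the wild-type isoform 7 sites there, 29.3% were kept (23.7 to 35.5), and of the I304N sites 4.65% were gained. FXR2 and FXR1 had 35 and 18 sites, all on the plus strand.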
